A study of Mus musculus with 6 samples.

Results

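The IGF2BP, LIN28 and HMGA proteins form 3 small families that are called oncofetal because they are made in embryonic tissues, fall silent in most adult ones and return in tumours. IGF2BP proteins bind messenger RNAs and control their stability, transport and translation. LIN28 proteins bind the precursors of let-7 microRNAs and block their processing, and HMGA proteins are architectural factors that bind AT-rich DNA in chromatin. The families are linked, since Hmga2, Lin28b and the Igf2bp genes are themselves reported targets of let-7. The 7 genes described here are Igf2bp1, Igf2bp2, Igf2bp3, Lin28a, Lin28b, Hmga1 and Hmga2. They were found through the accessions of the probes on the array, which gave 12 probes of 55681 non-control probes. Igf2bp1, Igf2bp3 and Lin28a had 1 probe each, Igf2bp2, Lin28b and Hmga2 had 2 each, and Hmga1 had 3.

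RNA was measured in 2 populations of mammary cells from female C57Bl6J mice, with 3 biological replicates of each and 1 array per replicate. Fetal cells came from mammary glands at embryonic day 18.5 and were sorted as EpCAM++CD49f+ cells lacking CD31, CD45 and Ter119. Adult basal cells came from glands of adults aged between 8 and 12 weeks and were sorted as EpCAM+CD49f+ cells that lacked BP-1 as well as the same 3 antigens. The sort gates, the age and the duration of the tissue digestion, which was overnight for adult glands and shorter for fetal ones, therefore changed together, and their contributions cannot be told apart. The arrays were one-color Agilent arrays of oligonucleotide probes, read by the fluorescence of the labelled cRNA bound to each spot. Between 76.4% and 83.3% of the probes of an array were well above background, which is the scanner software's own call for a spot, and no spot was saturated.

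Transcripts used as markers of basal epithelial cells were present in both populations. Keratin 5 (Krt5), keratin 14 (Krt14) and the basal transcription factor Trp63 were well above background on all 6 arrays. Of 8 basal markers, 6 were higher in adult basal cells and the other 2, Krt14 and Trp63, did not pass the test. Of these 6, Myh11 passed the low-signal threshold given below through the adult basal arrays alone. Of 9 luminal markers, Elf5, Kit and Pgr were called higher in fetal cells and the other 6 were not called. Elf5 passed the low-signal threshold through the fetal arrays alone. With Benjamini-Hochberg adjustment 2 luminal markers also passed as lower in fetal cells, the oestrogen receptor Esr1 and keratin 19 (Krt19, -1.22). No size is given for Esr1, whose probe was well above background on all 3 adult basal arrays but on only 1 of the 3 fetal arrays. Esr1 passed the threshold through the adult basal arrays alone. Of 8 proliferation markers, all 8 were higher in fetal cells, with a median log2 difference of 5.90. The summed signal of these 8 genes was 1086, 2407 and 1836 on the 3 adult basal arrays and 89324, 93341 and 93529 on the 3 fetal arrays. The probe with the most signal was that of Birc5 in fetal cells and that of Plk1 in adult basal cells, which does not rank the transcripts because probes bind with unequal strength. Bub1 was well above background on 2 of the 3 adult basal arrays and passed the low-signal threshold through the fetal arrays alone. The part of proliferation in the differences below was not tested.

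No tested marker of fibroblasts, leukocytes, endothelium, erythroid cells or skeletal muscle was called higher in fetal cells. Of 8 fibroblast markers, Dcn and Prrx1 were called lower in fetal cells, 4 were lower with Benjamini-Hochberg adjustment in limma's test, and 7 had an unadjusted p under 0.05, all 7 lower. The summed signal of the 8 genes was 16314, 19414 and 27123 in adult basal cells against 5450, 5740 and 7068 in fetal cells. The probe with the most signal was that of collagen 1 alpha 2 (Col1a2) in fetal cells and that of Dcn in adult basal cells. Prrx1 was well above background on none of the 3 fetal arrays and passed the low-signal threshold through the adult basal arrays alone. None of 5 leukocyte markers, of 3 tested endothelial markers or of 2 tested erythroid markers was called by limma, although an unadjusted p under 0.05 was found for 2, 1 and 1 of them, all lower in fetal cells, and 2, 1 and 0 passed with Benjamini-Hochberg adjustment. The muscle actin Acta1 was lower in fetal cells, with a log2 difference of -4.68. The probes of Cd3e, Kdr and Hemgn gave most of the signal of the leukocyte, endothelial and erythroid lists in both populations. The summed signals of these lists thus follow mainly 1 probe each and do not measure the share of these cells. They ranged over the 6 arrays from 4374 to 5780 for leukocytes and from 10732 to 13599 for endothelium. The erythroid sum ranged from 50854.5 to 53594 in fetal cells and from 91955 to 97453 in adult basal cells. The erythroid marker Epb42 was well above background on no array. The part of other cell types in the differences below was not tested.

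All values below are log2 signals after quantile normalization unless stated otherwise, and a difference is the fetal mean minus the adult basal mean. Since each probe binds with its own strength, levels are compared between arrays for 1 probe, and the brightness of different probes is used only to choose which to name. A probe was tested if it exceeded a low-signal threshold of 5.95 in at least 1 population, and was called if its change was at least 2-fold and limma's test gave it an adjusted p, by Holm's method, of at most 0.05. Of 20448 tested probes, 11.1% were called, 5.92% with the higher signal in the fetal population and 5.18% with the higher signal in the adult one. Of the 12 member probes, 10 were tested, and 4 of these were called, all higher in fetal cells. They belonged to Igf2bp1, Igf2bp2 and Igf2bp3. The other 6 tested probes, from Lin28a, Hmga1 and Hmga2, were not called, and neither of the 2 Lin28b probes reached the threshold.

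**Figure D1:**
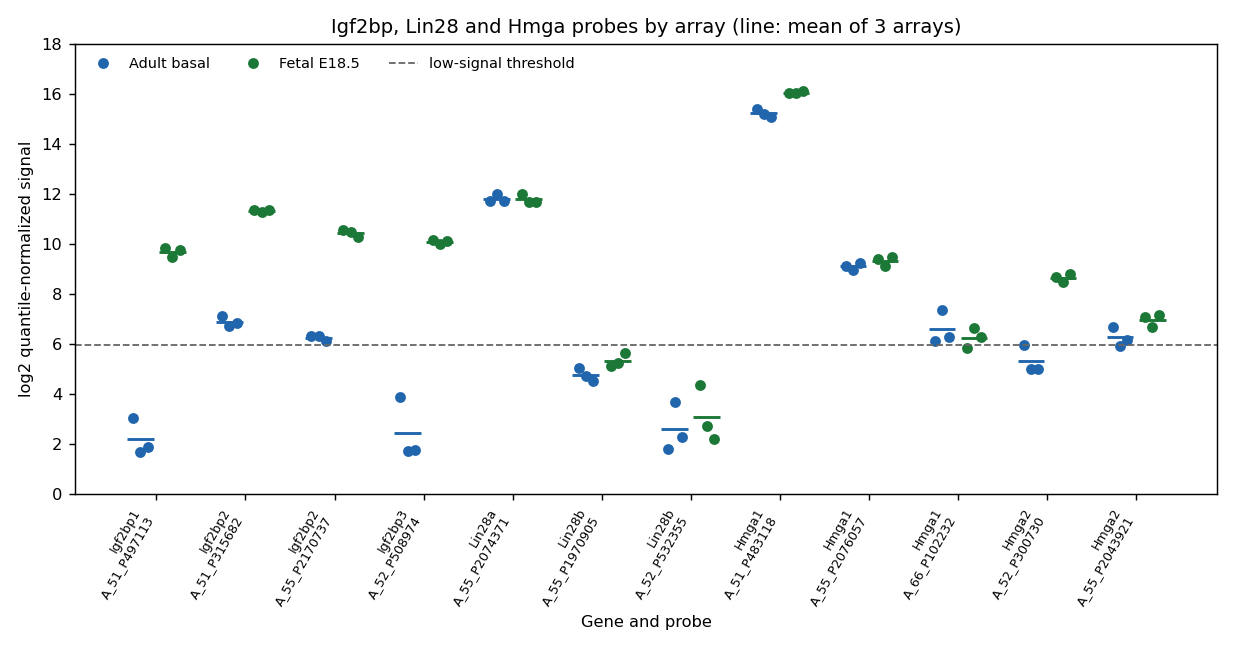
Log2 quantile-normalized signal (vertical axis) of the 12 probes of the 7 genes (horizontal axis) on the 3 adult basal (blue) and 3 fetal (green) arrays. Points are arrays, short lines are means of 3, and the dashed line is the low-signal threshold of 5.95. The arrays of the populations are far apart for the Igf2bp probes and for Hmga2 probe A_52_P300730, and overlap for Lin28a.

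The 3 Igf2bp genes were higher in fetal cells on every probe. Igf2bp2, the family member with the broadest expression in adult tissues, was the gene with signal in both populations. Its probe A_51_P315682 read 7.10, 6.72 and 6.83 in adult basal cells and 11.34, 11.28 and 11.34 in fetal cells. The populations did not overlap, and the SD over the 3 arrays was 0.04 in fetal cells against 0.20 in adult basal cells. The difference was 4.43 (SE 0.12, Holm-adjusted p = 4.8e-05 in limma's test), or 21.6-fold. In a bulk sample a lower share of cells with a transcript and less of it in each cell cannot be told apart.

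The other Igf2bp2 probe, A_55_P2170737, read 6.33, 6.32 and 6.12 in adult basal cells and 10.54, 10.46 and 10.29 in fetal cells. It gave a similar difference of 4.17 (SE 0.12, Holm-adjusted p = 4.7e-05 by limma's test). The 2 probes differed by 0.26 in their fold changes, and the exact permutation test of that difference gave p = 0.10, the smallest that 3 against 3 arrays allow. By unadjusted p, the 2 probes ranked 127 and 123 among the 20448 tested. Both were well above background on all 6 arrays, so adult basal cells had measurable Igf2bp2 signal.

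Igf2bp1 encodes a protein known for binding Actb and Myc messenger RNAs, and its signal in adult basal cells did not rise above background. Probe A_51_P497113 read 9.85, 9.47 and 9.76 on the fetal arrays, where it was well above background each time. The adult basal readings were 3.02, 1.69 and 1.86, none of them well above background. As processed scanner signal on a linear scale, the fetal values were 1020, 837 and 949 and the adult basal values 7.95, 3.06 and 3.75. The fold change is therefore a bound, at least 60.4-fold higher in fetal cells (Holm-adjusted p = 0.0013 in limma's test), taken against the dimmest signal that the scanner software still called well above background on each adult basal array. The probe passed the low-signal threshold through the fetal arrays alone, and without that filter the adjusted p was 0.019.

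Igf2bp3, whose human counterpart is used as a tumour marker, had the same fetal pattern with a less even adult background. Probe A_52_P508974 read 10.16, 9.99 and 10.12 in fetal cells and 3.89, 1.72 and 1.74 in adult basal cells. Adult basal replicate 1 stood above the other adult arrays and was the only one of the 3 on which the probe was well above background. The fitted difference was 7.64 (SE 0.55, Holm-adjusted p = 0.033 in limma's test). Because 2 of the 3 adult values were at background, its size is not an exact fold change, and the probe passed the low-signal threshold through the fetal arrays alone. Without that filter the call was lost (adjusted p = 0.30). Leaving out single arrays changed the call in limma's test. Without adult basal replicate 2 the adjusted p was 0.10, without replicate 3 it was 0.23, and without any of the fetal arrays it lay between 0.39 and 0.43. Omission of adult basal replicate 1 left only adult values at background, and the size is then not read.

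The sizes for Igf2bp1 and Igf2bp3 depended on how low signals were treated. With normexp background correction the differences were 3.78 and 4.04, and with an offset of 16 added before log2 they were 5.33 and 5.61, with both calls kept. For Igf2bp1 both values lie under the bound given above, which is 5.92 in log2, so that bound holds for the main processing only. Igf2bp2 moved less, to 3.81 and 4.26. No order of the 3 genes by size of change is drawn, because the adult values of Igf2bp1 and, on most arrays, of Igf2bp3 were not well above background.

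**Figure D2:**
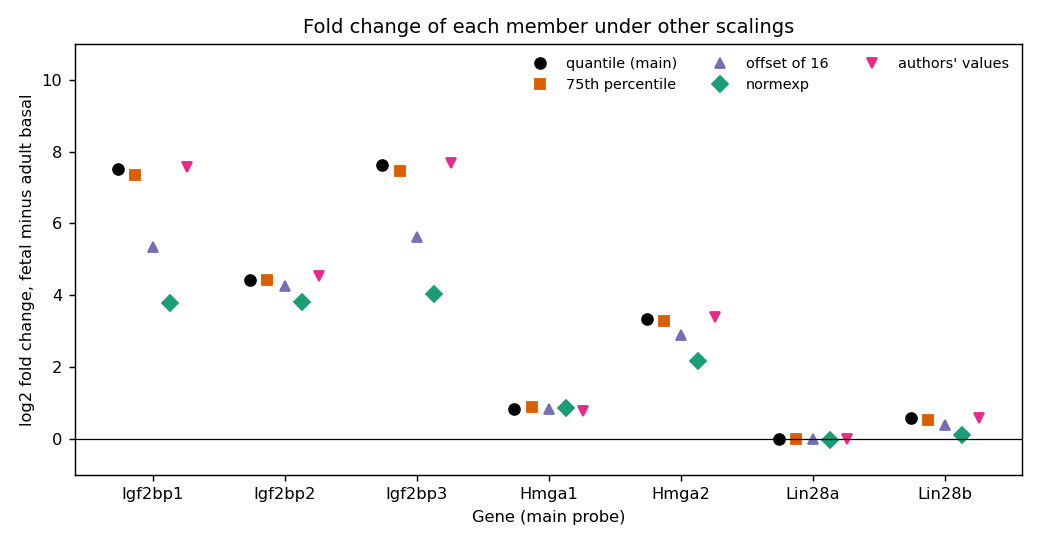
Log2 fold change, fetal minus adult basal (vertical axis), of the main probe of each gene (horizontal axis) under the main quantile normalization and 4 other treatments of the signal. Igf2bp1 and Igf2bp3 move from above 7 to about 4 under normexp, Igf2bp2 stays between 3.81 and 4.54, and Lin28a stays near 0.

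The genes whose pattern was most like that of Igf2bp2 were found by the distance between log2 values centred on each probe's mean over the 6 arrays, among 19771 probes well above background on all of them. Tedc1, whose product is part of a complex of the centriolar tubulins, was nearest at a distance of 0.14 and a difference of 4.47. Mlf1, a gene named for a myeloid leukaemia fusion, followed at 0.22 with a difference of 4.48. Limch1, an actomyosin regulator, was at 0.23 with a difference of 4.35. Igf2bp1 and Igf2bp3 were not measurable on all adult arrays and were not compared in this way.

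The promoter windows of the members show what the genes carry just upstream of their start sites. Windows of 250 bases before the start site were taken from RefSeq (GRCm38.p6) for 6 of the 7 genes, all but Igf2bp1, with 2 start sites for Hmga1. The motifs searched, on both strands, were an E-box with the letters CACGTG, which read the same on either strand, and a TATA box with the letters TATAAA. Also searched were a CCAAT box, spelled as its name, and a GC box with the letters GGGCGG. Of all 32851 mouse promoter windows, 6.02% held the E-box, 12.4% the TATA box, 33.8% the CCAAT box and 32.7% the GC box. Igf2bp2 and Hmga2 are shown as the called gene with signal in both populations and the HMGA gene with the larger change, 5′ to 3′ on the gene's strand, with GC-box matches in capitals. The Igf2bp2 window is chr16:22163300-22163549 on the minus strand and the Hmga2 window chr10:120476470-120476719 on the minus strand.
Igf2bp2: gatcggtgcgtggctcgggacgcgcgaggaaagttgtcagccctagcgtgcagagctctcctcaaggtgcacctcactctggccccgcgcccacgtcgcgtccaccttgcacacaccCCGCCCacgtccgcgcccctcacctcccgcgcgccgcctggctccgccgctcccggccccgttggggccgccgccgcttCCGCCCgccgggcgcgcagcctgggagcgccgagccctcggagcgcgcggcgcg
Hmga2: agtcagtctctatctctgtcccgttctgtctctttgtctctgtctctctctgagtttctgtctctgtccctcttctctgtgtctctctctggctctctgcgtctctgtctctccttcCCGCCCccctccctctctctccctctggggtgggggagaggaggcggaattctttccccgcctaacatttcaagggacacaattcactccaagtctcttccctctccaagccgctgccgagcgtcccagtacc

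The Igf2bp2 window held 2 GC boxes and 77.2% G or C, the Hmga2 window held 1 GC box and 56.4%, and the median over all windows was 52.4%. Both Hmga1 windows held GC boxes as well, 3 in one and 4 in the other. Igf2bp3 and Lin28b, a called gene and one below threshold, each held 1 E-box and 1 CCAAT box and no GC box. Their E-boxes, in capitals within 30 bases of the gene's strand, begin 23 bases (Igf2bp3, chr6:49214960-49214989) and 49 bases (Lin28b, chr10:45470233-45470262) before the start site, both on the minus strand.
Igf2bp3: gctgggattcctCACGTGagacgttgattt
Lin28b: aattgacagagtCACGTGtgctcaggggcc

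The Lin28a window held none of the 4 motifs, and no member window held a TATA box. These matches describe letters only. The arrays measured no binding, and the called and uncalled genes did not separate by motif.

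LIN28 proteins act through let-7, whose mature forms are shown because the seed, bases 2 to 8 of the microRNA, decides which transcripts it can pair with. RefSeq (GRCm38.p6) lists 11 mature sequences of the family, from 13 genes, on the 5p arm or with no arm named. Of these, 10 share the seed GAGGUAG, and let-7j has GAGGUAU. A selection follows, with the seed in capitals.
let-7a-5p: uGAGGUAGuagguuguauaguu
let-7b-5p: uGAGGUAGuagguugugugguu
let-7c-5p: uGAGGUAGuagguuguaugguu
let-7g-5p: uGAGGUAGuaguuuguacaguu
let-7i-5p: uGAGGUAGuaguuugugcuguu
let-7j: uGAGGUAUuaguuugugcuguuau
miR-98-5p: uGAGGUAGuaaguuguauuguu

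No probe of the array was matched to a let-7 or miR-98 gene, so the microRNAs themselves were not measured here.

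Lin28a, the cytoplasmic paralogue, did not pass the test. Its probe A_55_P2074371 read 11.70, 11.98 and 11.71 in adult basal cells and 11.99, 11.68 and 11.68 in fetal cells, and every array was well above background. The populations overlapped. The difference was -0.01 (95% interval from -0.33 to 0.30, Holm-adjusted p = 1 in limma's test), so a change of 2-fold in this probe lay outside the interval. Lin28a had this 1 probe only, and cross-hybridization was not tested, so its brightness is not read as a level of Lin28a RNA. Within slides the sign was not stable, with 0.28 on slide 1 and -0.30 on slide 2.

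Lin28b, the paralogue that is largely nuclear, was dim in both populations. Probe A_55_P1970905 read 5.02, 4.72 and 4.53 in adult basal cells and 5.11, 5.24 and 5.65 in fetal cells. Every fetal array was above every adult basal array, and all 6 were well above background, but its values fell under the low-signal threshold and no call was made. Its difference of 0.58 was 0.11 after normexp correction. Among all tested probes 69.0% did not overlap between the populations, so this separation was common. The other probe, A_52_P532355, read 1.79, 3.67 and 2.29 against 4.36, 2.70 and 2.17, with only fetal replicate 1 well above background. Its populations overlapped, and its difference of 0.50 became -0.19 without fetal replicate 1 and 1.06 without adult basal replicate 2, so no direction is read from it.

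The paralogues were compared within arrays. The log2 ratio of Lin28b over Lin28a within an array changed by 0.59 between adult basal and fetal cells, and the exact permutation test gave p = 0.20, 2-sided, where 0.10 is the smallest possible. The change was 0.53 with 75th percentile normalization (exact p = 0.10) and 0.13 with normexp (exact p = 0.50).

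Of the HMGA genes, Hmga2 showed the larger change, on 1 of its probes. Probe A_52_P300730 read 5.96, 4.98 and 5.01 in adult basal cells and 8.69, 8.47 and 8.78 in fetal cells. The populations did not overlap, adult basal replicate 1 was the highest of its group, and no array was at background level. The difference was 3.33 (SE 0.27, 95% interval from 2.70 to 3.95), which missed the Holm threshold (adjusted p = 0.071 in limma's test). The probe passed the low-signal threshold through the fetal arrays alone, and without that filter the adjusted p was 0.54. It was 0.19 with slide as a block and 0.10 with the replicate block. Leaving out single arrays gave an adjusted p between 0.22 and 0.97 for 5 of the 6, and only without adult basal replicate 1 did the probe pass (difference 3.64, adjusted p = 0.0026 in limma's test). With Benjamini-Hochberg adjustment, under which 30.0% of the filtered probes were called, its adjusted p was 3.2e-05, and 5 member probes of 4 genes were then called. After normexp correction the difference was 2.17 (Holm-adjusted p = 0.0011 by limma).

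The other Hmga2 probe did not follow. A_55_P2043921 read 6.67, 5.93 and 6.16 in adult basal cells and 7.09, 6.66 and 7.16 in fetal cells, and the populations overlapped by 1 array. Its difference was 0.72 (SE 0.22, Holm-adjusted p = 1 by limma's test). The 2 probes differed by 2.61 in their fold changes (exact permutation test, p = 0.10, the smallest possible). Both are assigned to Hmga2 through their accessions, and the files used here do not show which part of the transcript each one reads. With the mean of both probes the difference was 2.02. A probe for the pseudogene Hmga2-ps1, A_55_P2320283, was not counted among the 12 and had a difference of -0.30.

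Hmga1, the HMGA gene with broader expression, was not called on any of its 3 probes. Its brightest probe, A_51_P483118, read 15.41, 15.19 and 15.08 in adult basal cells and 16.03, 16.03 and 16.10 in fetal cells. Every fetal array was higher. The difference was 0.83 (SE 0.12), or 1.78-fold, with a Holm-adjusted p of 1 and a Benjamini-Hochberg adjusted p of 5.4e-04 in limma's test. Probe A_55_P2076057 ranged from 8.96 to 9.25 in adult basal cells and from 9.13 to 9.48 in fetal cells, a difference of 0.23. Probe A_66_P102232 read 6.12, 7.37 and 6.27 in adult basal cells and 5.83, 6.62 and 6.27 in fetal cells, a difference of -0.34, and adult basal replicate 2 stood above the others. The populations overlapped on both of these probes. With the mean of the 3 probes the difference was 0.24. Hmga1 has processed pseudogenes, and cross-hybridization was not tested.

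Hmga2 and Hmga1 were compared on their brightest probes. The log2 ratio of Hmga2 over Hmga1 within an array ran from -10.21 to -9.44 in adult basal cells and from -7.56 to -7.32 in fetal cells. The difference was 2.50 with no overlap (exact permutation test, p = 0.10, 2-sided, the smallest possible), and 1.32 after normexp correction. It holds for this Hmga2 probe only, since the other one had a difference of 0.72 against 0.83 for Hmga1. As with all log2 ratios between probes, only this change can be read, not the level.

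**Figure D3:**
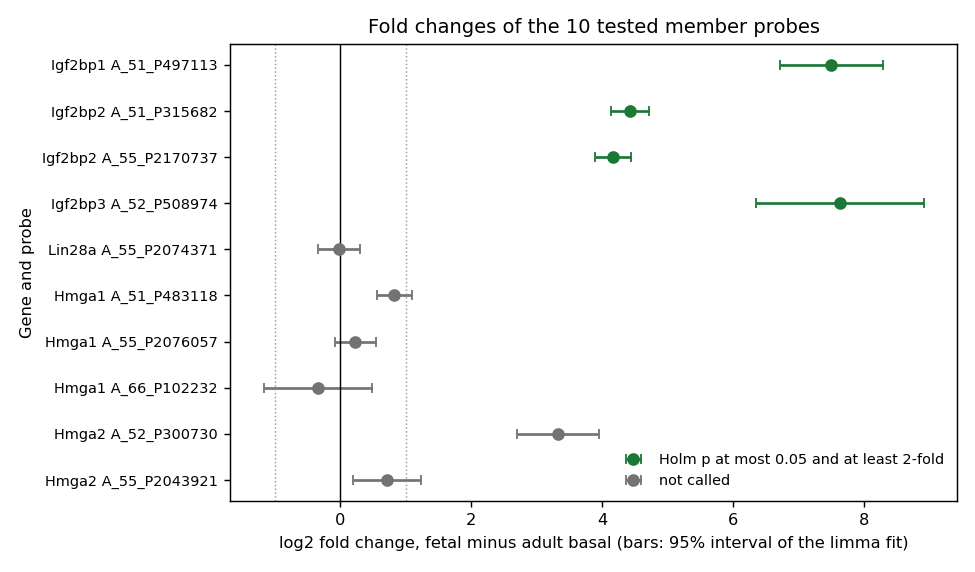
Log2 fold change, fetal minus adult basal (horizontal axis), of the 10 tested member probes (vertical axis), with 95% intervals of the limma fit. Dotted lines mark 2-fold. The 4 called probes (green) are those of the Igf2bp genes, where the fitted values of Igf2bp1 and Igf2bp3 rest on adult signals at or near background and are not exact, and the Hmga2 probe at 3.33 is the uncalled one farthest from 0.

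The 6 arrays lay on 2 slides. Slide 1 held adult basal replicates 1 and 3 and fetal replicate 1, and slide 2 held the other 3 arrays. The brightest probes of the 3 Igf2bp genes, Hmga2 and Hmga1 read higher in fetal cells within each slide. The differences on slides 1 and 2 were 4.37 and 4.59 for Igf2bp2, 3.20 and 3.64 for Hmga2, and 0.79 and 0.88 for Hmga1. Hmga1 probe A_66_P102232 read lower in fetal cells on both slides, with differences of -0.36 and -0.92. No sizes are given by slide for Igf2bp1 and Igf2bp3, whose adult signals were mostly at background. With slide as a block, Igf2bp3 had a difference of 7.84 and missed the Holm threshold (adjusted p = 0.089 in limma's test), whereas Igf2bp1 and Igf2bp2 kept their calls.

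The genes around the members were then read as 7 lists, taken with 1 probe a gene. Over all 15734 genes tested in this way, 6.03% were called as higher in the fetal population and 5.21% as lower there, and the median difference was -0.04. With Benjamini-Hochberg adjustment the shares were 15.8% and 13.9%, and an unadjusted p under 0.05 was found for 63.8% of genes, 31.8% higher and 32.0% lower in fetal cells. Of 18 genes of the LIN28 and let-7 pathway, all tested, 1 was called, and members lay on both sides of the median difference of -0.01. With Benjamini-Hochberg adjustment 3 were called higher and 1 lower in fetal cells, and 11 had an unadjusted p under 0.05, 6 of them higher and 5 lower. The called gene was Hnrnpa1, an RNA-binding protein that binds let-7 precursors, with 12.25, 11.98 and 11.93 in adult basal cells and 14.24, 14.21 and 14.22 in fetal cells, a difference of 2.17 (Holm-adjusted p = 0.0047 by limma's test). The brightest uncalled genes were Zfp36l1, which promotes messenger RNA decay (0.64), Khsrp, which aids let-7 processing (-0.04), and the Dicer partner Tarbp2 (0.23). The enzymes that add uridines to let-7 precursors and degrade them were named here for that role after their values were seen. Their differences were 0.49 for Tut4, -0.19 for Tut7 and 1.17 for Dis3l2. None of them was called at the Holm threshold in limma's test, but Dis3l2 passed with Benjamini-Hochberg adjustment.

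Of 30 reported let-7 targets outside the 7 genes, 28 were tested, 2 were called in each direction, and the median difference was 0.01. With Benjamini-Hochberg adjustment 5 were called higher and 4 lower in fetal cells, and of 19 with an unadjusted p under 0.05, 9 were higher and 10 lower. Ccnd1, the cyclin that drives entry into the cell cycle, was at 8.57, 7.78 and 8.35 in adult basal cells and 14.81, 14.82 and 14.82 in fetal cells, a difference of 6.59 (SE 0.20, Holm-adjusted p = 7.9e-05 in limma's test). Dna2, a nuclease and helicase of DNA replication, was higher by 3.92. Its probe passed the low-signal threshold through the fetal arrays alone. The transcription factor Arid3a fell by 3.06 and the growth factor receptor Igf1r fell by 2.65 in fetal cells. The brightest uncalled targets were Thbs1 (0.31), Irs2 (-1.56) and Cdc34 (-0.18).

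Igf2, the transcript for which the IGF2BP family was named, was higher in fetal cells. It read 6.71, 6.94 and 6.83 in adult basal cells and 9.08, 8.93 and 8.80 in fetal cells, a difference of 2.11 (SE 0.12, Holm-adjusted p = 0.0061 in limma's test). Of 16 transcripts reported as bound by IGF2BP proteins, 15 were tested, and Igf2 and Ccnd1, which is also on the let-7 list, were the 2 called. With Benjamini-Hochberg adjustment 3 were higher and 2 lower in fetal cells, 5 were higher and 5 lower at an unadjusted p under 0.05, and the median difference of the list was 0.19. The brightest uncalled ones were Actb (0.19), the phosphatase Ptp4a1 (0.32) and the cyclin Ccnd3 (0.21). None of 10 protein partners of IGF2BP particles was called at the Holm threshold in limma's test, while 2 passed with Benjamini-Hochberg adjustment and 6 had an unadjusted p under 0.05. The median difference was 0.48. Pabpc1, which binds poly(A) tails, had a difference of -0.23, Ybx1 of 0.80 and Elavl1 of 0.60.

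Of 10 genes reported as regulated through HMGA proteins, 8 were tested, 3 were called with higher fetal signal and 1 with lower, and the median difference was 1.99. Both cyclins on this list are also markers of cycling cells. The mitotic cyclins Ccna2 and Ccnb2 were higher by 5.34 and 5.50, and the cell cycle inhibitor Cdkn2b by 3.40. Snai2, a transcription factor of basal mammary cells, fell by 2.50 in fetal cells. The uncalled genes with the most signal were Tet1 (0.17), Junb (1.00) and E2f1 (2.98). Under Benjamini-Hochberg adjustment 4 genes of the list were called higher and 2 lower in fetal cells. In limma's test 6 had an unadjusted p under 0.05, 4 of them higher and 2 lower.

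Of 12 other high mobility group genes, all tested, 4 were called higher in fetal cells and none lower, and the median difference was 1.24. The called genes were the nucleosome-binding Hmgn5 (2.91), Hmgn2 (2.81) and Hmgn3 (1.37) and the DNA-bending Hmgb3 (2.23). Hmgn2 read 12.73, 12.85 and 12.44 in adult basal cells and 15.51, 15.47 and 15.46 in fetal cells. Hmgn1 (1.22), Hmgb2 (1.84) and Hmgb1 (1.26) had the most signal among the uncalled genes. With Benjamini-Hochberg adjustment 7 of the 12 were called, all higher in fetal cells. In limma's test 9 had an unadjusted p under 0.05, 7 of them higher and 2 lower there. Several of these genes have pseudogenes, as Hmga1 does.

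A further list of 10 genes was named other oncofetal genes, and was chosen with earlier results of these data known. Whether each of its genes meets the definition given at the start was not examined. Of the 10, 8 were tested and 6 were called, all higher in fetal cells, with a median difference of 2.83. These counts describe the list and not oncofetal genes as a class. Dlk1, a membrane protein of immature cells, read 10.45, 11.17 and 9.93 in adult basal cells and 14.89, 15.05 and 15.02 in fetal cells, a difference of 4.47 (SE 0.29, Holm-adjusted p = 0.015 by limma's test). The imprinted gene Mest was higher by 3.65, the heparan sulphate proteoglycan Gpc3 by 3.22, the zinc finger genes Plag1 and Plagl1 by 3.14 and 2.52, and Igf2 by 2.11. The Plag1 probe was well above background on 2 of the 3 adult basal arrays, so its 3.14 is not an exact size. It passed the low-signal threshold through the fetal arrays alone. Sall4, a transcription factor of pluripotent cells that is also on the let-7 list, had a difference of 0.12 and Tpbg of -0.19, neither called. Afp, the alpha-fetoprotein gene, was well above background on no array, and no probe was matched to H19.

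**Figure D4:**
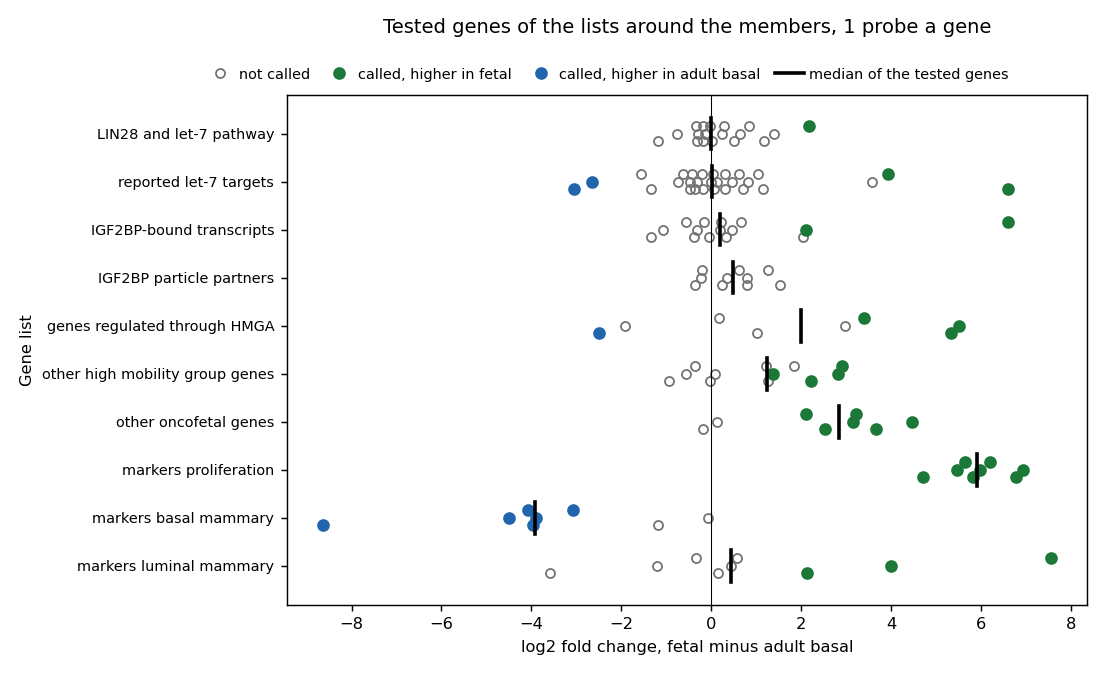
Log2 difference, fetal minus adult basal (horizontal axis), of the tested genes of 7 lists around the members and of 3 lists of cell markers (vertical axis). Filled points passed the Holm threshold with at least a 2-fold change, open points did not, and bars are medians of the tested genes. The medians of the LIN28 and let-7 pathway and of the let-7 targets are -0.01 and 0.01. The list named other oncofetal genes has a median of 2.83 and the proliferation markers one of 5.90.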

How the data were processed

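RNA of 3 fetal and 3 adult basal samples was hybridized to 1 array each. The authors deposited spot intensities from Feature Extraction 11.0.1.1, background-subtracted but not normalized between arrays, and a table of log2 values that they quantile normalized, used here as an alternative. Here, control spots and outlier spots were removed, log2 processed signals of a probe's spots were averaged, and quantile normalization was applied across the 6 arrays. Accessions matched a RefSeq table for 27235 of 55681 probes (20660 genes). Probes below the midpoint of the lower 2 of 3 k-means centres in both populations were removed. Tests used limma 3.58.1 in R 4.3.3 without covariates, with Holm adjustment over all 20448 probes, and were tested on simulated data. Tables and plots used Python 3.11.15, pandas 2.3.3, numpy 2.4.6 and matplotlib 3.10.9. The brightest probe stands for a gene with several. A planned erythroid marker is not reported here. Members and lists were chosen with earlier results of these data known. The text names all members, each called gene of a list and up to 3 of its brightest uncalled ones, and the 3 genes most like each called member measured on all arrays. The labels and the study's methods name different labelling kits. Alternatives were another normalization (75th percentile), normexp (offset 50, on median spot intensities rather than the planned means), an offset of 16, other filters, Benjamini-Hochberg adjustment, trend and robust estimation, slide or replicate blocks, the mean of probes, and each array left out. The number of arrays limits the precision.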

Additional observations from a re-analysis of the deposited data

How the results depend on the processing

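Igf2bp1 and both Igf2bp2 probes stayed higher in fetal cells and called under every alternative run. Igf2bp3 stayed higher but missed the Holm threshold in limma's test without the low-signal filter (difference 7.64, Holm-adjusted p = 0.30), with a filter on probes well above background (7.64, adjusted p = 0.052), over all non-control probes (7.64, adjusted p = 0.082), with trend and robust estimation (7.64, adjusted p = 0.32), with slide as a block (7.84, adjusted p = 0.089) and without 5 of the 6 arrays in turn (range over all 6 from 7.31 to 8.28). These are fitted values and no exact sizes, and the upper end, without adult basal replicate 1, rests on adult values at background alone. Hmga2 gained the call with 75th percentile normalization (3.28), normexp (2.17), the offset of 16 (2.88) and Benjamini-Hochberg adjustment (3.33). It also gained it with trend and robust estimation (3.33) and without adult basal replicate 1 (range with each array left out from 3.17 to 3.64). Hmga2 stayed uncalled without the low-signal filter, with the filter on probes well above background and over all non-control probes. The deposited normalized values (3.41) and the mean of both its probes (2.02) left it uncalled too. So did either block and the omission of any of the other 5 arrays. Lin28b moved to 0.11 with normexp. Lin28a changed sign around 0 without adult basal replicate 2 (0.075), fetal replicate 2 (0.035) or fetal replicate 3 (0.040, range from -0.12 to 0.075), and Hmga1 probe A_66_P102232 did so without adult basal replicate 2 (0.050, range from -0.58 to 0.050), none of them called. Lin28b probe A_52_P532355 lay between -0.19 and 1.06 when single arrays were omitted. The cause was not tested.

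All probes called numbered 2270, against 1182 without the filter, 6133 with Benjamini-Hochberg adjustment, 1302 with the replicate block and between 948 and 1949 with 1 array left out. Called member genes numbered between 2 and 4. Same-numbered arrays did not deviate together (correlations -0.03, 0.09 and 0.05, against -0.13 to 0.12 for unlike numbers). These values gave no sign that the numbers pair the samples, but so few arrays cannot exclude it. Under the replicate block the same 3 member genes were called, with Igf2bp3 at an adjusted p of 0.037 in limma's test. Dim probes limit Lin28b and the adult values of Igf2bp1 and Igf2bp3, where signal is close to background.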
